A study of Mus musculus with 8 samples.

Results

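The endothelial and angiogenic genes are 55 mouse genes that mark the cells lining blood and lymph vessels or encode the growth factors that act on them. They were chosen by gene symbol from the names the array gives its probes, with older names (Pecam, Esam1, Xlkd1 and Figf for Pecam1, Esam, Lyve1 and Vegfd) taken as the same gene. All 55 were on the array, with 98 of its 41174 probes. By role, 39 are expressed by the vessel itself (8 receptors and co-receptors, 12 junction and surface proteins, 4 secreted or matrix proteins, 5 transcription factors, 4 lymphatic and sinusoidal markers, 2 selectins and 4 Notch and ephrin genes) and 16 encode ligands (5 of the VEGF family, 4 angiopoietins and angiopoietin-like proteins, 3 FGF and HGF ligands and 4 PDGF ligands). In 53 of the 55 a probe was bright enough to be compared; the 2 left out were Sele and Fgf2.

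The tumours came from virgin female mice that carry MMTV-NIC, a transgene in which the mouse mammary tumour virus promoter drives activated Neu (ErbB2) and Cre recombinase in mammary epithelium. In the 5 samples of the floxed group (Stat3flx/flx/NIC) both alleles of Stat3, a transcription factor downstream of cytokine receptors, can be removed by that Cre, and each sample is 1 tumour. In the 3 samples of the wild-type group (Stat3wt/wt/NIC) Stat3 is intact, and each sample is a pool of 5 tumours. All were taken 6 weeks after a tumour could first be felt; the ages of the mice are not given in the labels. Because Cre comes from the mammary epithelium, endothelial cells, pericytes and other stroma of the floxed tumours keep their floxed Stat3 alleles unless they express the transgene. Each tumour RNA was labelled with Cy5 and hybridised beside a universal mouse reference RNA labelled with Cy3, and the dyes were not swapped. Every value below is therefore a log2 ratio of tumour over reference for 1 probe, and levels of different genes are not set against each other. Samples are listed as floxed tumours 1 to 5 and wild-type pools 1 to 3 throughout.

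New vessels grow when vascular endothelial growth factors bind receptor tyrosine kinases on endothelial cells, with neuropilins as co-receptors. Angiopoietins act through the receptor Tek (Tie2) to steady vessels or loosen them, and Notch signalling through Dll4 sets which endothelial cells lead a sprout. PDGF ligands recruit the pericytes that cover the vessel, and in mammary tumours Vegfa is made largely by tumour and stromal cells rather than by the endothelium.

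The arrays had similar signals: the median tumour signal ran from 642 to 891 units against a local background of 47 to 58, and the share of probes called well above it lay between 71.7% and 77.3%. Of 21540 genes compared by limma, 1 passed a Benjamini-Hochberg adjusted p of 0.05, Dppa1, which was lower in the floxed tumours by a log2 difference of -2.31 (adjusted p = 0.0441). Stat3 itself had log2 ratios of -1.32, -1.33, -1.48, -1.22 and -1.12 in the floxed tumours and of 0.12, 0.86 and 1.27 in the pools, so that every floxed tumour was below every pool, as for 2.17% of all genes. Its log2 difference was -2.05 (SE 0.24, limma adjusted p = 0.109); whether its probe lies in the removed part of the gene was not examined. The labels give each floxed tumour its own ID number but do not say that the numbers stand for different mice. The p-values therefore measure only the spread between these samples. A pool of 5 tumours also averages over tumours, which a single tumour does not.

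No endothelial or angiogenic gene (0 of 53, beside 0.00464% of all genes) passed the adjusted threshold in limma between the floxed tumours and the wild-type pools. The log2 difference, floxed minus wild-type, was above 0 in 34 of the 53 genes and below 0 in 19, with a median of 0.15, beside 47.4% above 0 and a median of -0.014 over all genes. At an unadjusted limma p under 0.05 there was 1 of 53, Plvap, higher in the floxed tumours; over all genes 4.97% reached that p in either direction, 1.61% higher and 3.37% lower. In 0 of the 53 were the groups free of overlap, beside 3.18% of all genes (1.01% with the floxed tumours higher and 2.17% lower). The 38 vessel genes compared (25 above 0, 13 below) had a median difference of 0.15. For the 15 ligands (9 above, 6 below) it was 0.024. Both the 34 and the 25 above 0 include Mmrn1, whose probe was well above background in floxed tumours alone. In bulk tumour RNA, fewer endothelial cells and less RNA of a gene per cell cannot be told apart.

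The median difference moved with single samples. Over the 53 genes it was 0.31 without wild-type pool 3, 0.0099 without pool 1, 0.011 without pool 2, 0.24 without floxed tumour 3, 0.028 without floxed tumour 2 and 0.070 without floxed tumour 5. Each of the 3 slides held both groups, and the same median within a slide was 0.26 for the slide with pool 1, 0.23 for that with pool 2 and -0.26 for that with pool 3. The sign of the median thus differed between slides.

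**Figure D1:**
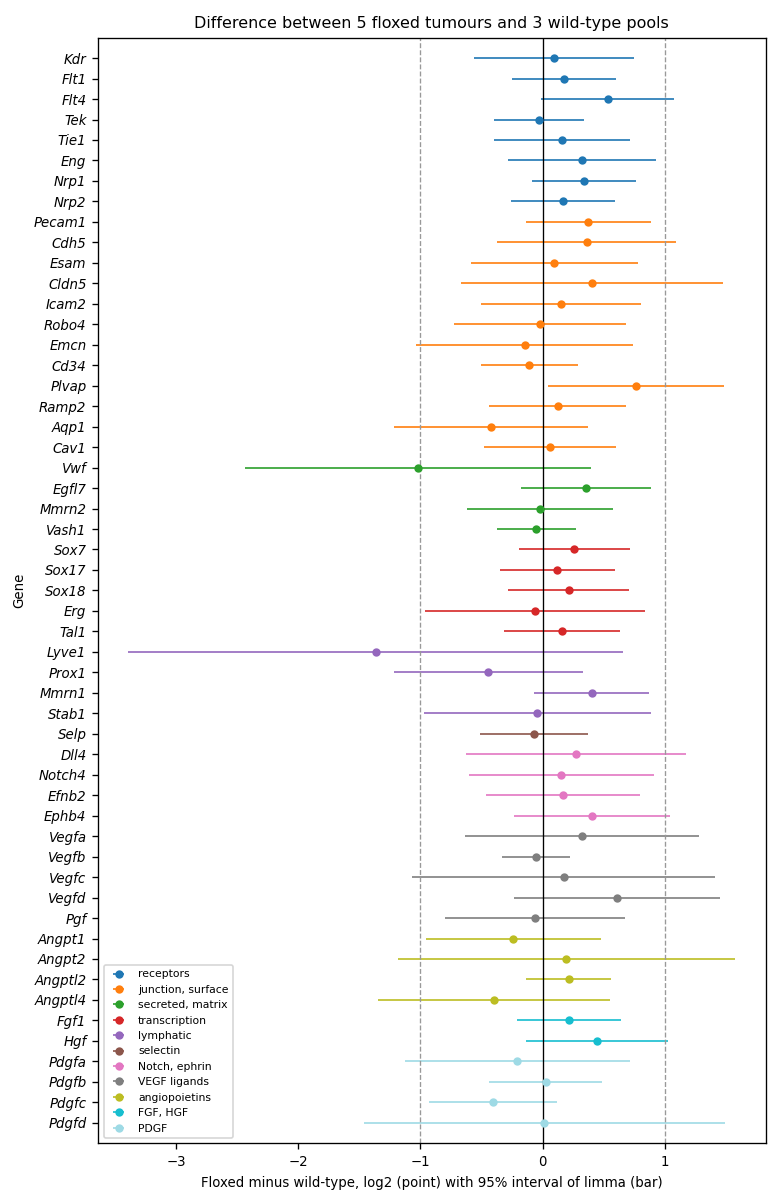
Log2 difference of each of the 53 genes, mean of 5 floxed tumours minus mean of 3 wild-type pools (points), with the 95% confidence interval of limma (bars); colours give the role and dashed lines mark a 2-fold difference either way. The interval holds 0 in 52 of the 53, Plvap being the exception, and is widest for Lyve1. Mmrn1 is drawn, but no test is read from it.

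Of the 8 receptors and co-receptors, 7 had a difference above 0, from 0.095 for Kdr to 0.53 for Flt4, and 0 passed. Kdr (VEGF receptor 2, the main signalling receptor for Vegfa; probe at chr5:75351537-75351596 of build mm7, minus strand) had log2 ratios of 5.70, 5.32, 4.74, 5.00 and 5.32 in the floxed tumours and 4.96, 4.64 and 5.77 in the pools. Pool 3 was the highest sample and pool 2 the lowest, so the pools spanned every floxed tumour, and the difference was 0.095 (SE 0.29, limma adjusted p = 0.982). Flt4 (VEGF receptor 3, the receptor for Vegfc and Vegfd on lymphatic and sprouting endothelium) had 0.70, 1.52, 0.84, 1.39 and 1.64 against 0.53, 0.85 and 0.67. Floxed tumours 2, 4 and 5 were above every pool, and tumours 1 and 3 lay among them. The difference was 0.53 (SE 0.24, limma unadjusted p = 0.0535, adjusted p = 0.942; exact permutation p = 0.0714, two-sided), and its probe was well above background in 5 of 5 floxed tumours and 2 of 3 pools.

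Nrp1, a co-receptor for VEGF and semaphorins, had a difference of 0.34 (SE 0.19, limma adjusted p = 0.942). Eng, a TGF-beta co-receptor of activated endothelium, had 0.32 (SE 0.27), and Flt1, a VEGF receptor that also serves as a decoy, 0.18 (SE 0.19). For Tie1, an orphan partner of Tek, the difference was 0.16 and for the co-receptor Nrp2 it was 0.16. Tek, the angiopoietin receptor, was the 1 receptor below 0, at -0.028 (SE 0.16), and its other probe gave 0.053.

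Among the 12 junction and surface markers, 8 had a difference above 0 and 4 below, and their median was 0.11. Plvap, which forms the diaphragms of fenestrated capillaries and is often high in tumour vessels, had log2 ratios of 3.52, 3.84, 2.69, 3.24 and 3.33 in the floxed tumours and 1.86, 3.05 and 2.78 in the pools (1 probe, chr8:69965063-69965122 of mm7, minus strand). Floxed tumours 1, 2, 4 and 5 lay above every pool, tumour 3 lay between pools 1 and 3, and pool 1 was the lowest sample. The difference was 0.76, or 1.70-fold (SE 0.32, 95% interval 0.045 to 1.48), with a limma unadjusted p of 0.0396 and an adjusted p of 0.942; the exact permutation p was 0.0893, two-sided, where 56 splits allow at least 0.0179. The difference was 1.43 within the slide of pool 1, 0.48 within that of pool 2 and 0.49 within that of pool 3, and its unadjusted p was 0.0338 with slide as a fixed block. It was 0.41 without pool 1 and 1.01 without pool 2. The unadjusted p was not under 0.05 with median centring, with a trended robust variance or in the authors' deposited table, nor when any sample other than floxed tumour 3 or pool 2 was left out.

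Cdh5 (VE-cadherin, the adhesion protein of endothelial junctions; chr8:102744763-102744822 of mm7, plus strand) had log2 ratios of 4.47, 5.13, 3.84, 4.76 and 5.01 in the floxed tumours and 4.20, 3.83 and 4.81 in the pools. Floxed tumour 3 lay next to the lowest pool and tumours 2 and 5 were the highest samples. Its difference was 0.36 (SE 0.32, limma adjusted p = 0.942), 0.19 by its other probe and between 0.14 and 0.63 with a sample left out. Pecam1 (CD31, a surface protein of all endothelium, platelets and some leukocytes) had 1.00, 0.92, 0.05, 0.48 and 0.87 against 0.24, 0.26 and 0.38. Here 4 floxed tumours were above every pool and tumour 3 was below every pool, with a difference of 0.37 (SE 0.23, limma adjusted p = 0.942).

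Emcn, a sialomucin of veins and capillaries, stood the other way in its mean, at -0.15 (SE 0.39). Its log2 ratios were 6.04, 5.81, 5.08, 5.09 and 5.53 in the floxed tumours and 5.44, 4.88 and 6.65 in the pools, so the highest and the lowest sample were both pools. Robo4 (a guidance receptor of endothelium), Cd34 (a sialomucin also found on stem and stromal cells) and Aqp1 (a water channel of capillaries and other cells) had differences of -0.020, -0.11 and -0.42. The claudin Cldn5, with 7 arrays because its spot on floxed tumour 4 carried an outlier mark, had 0.41 (SE 0.46). Esam, Icam2, Ramp2 and Cav1 had differences between 0.063 and 0.15; the other kept probe of Cav1 gave 0.61 (SE 0.39), against 0.063 by the one used, with pool 3 its lowest sample at -3.97.

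Of the 4 secreted and matrix proteins, Egfl7, a small protein that endothelial cells lay down in their matrix, had a difference of 0.36 (SE 0.24, limma adjusted p = 0.942), and the others were below 0. Vwf, the clotting factor stored by endothelial cells and platelets (chr6:125709328-125709387 of mm7, plus strand), had log2 ratios of 0.10, 1.53, 0.68, -1.41 and -1.07 in the floxed tumours and 0.97, 0.54 and 1.45 in the pools. Floxed tumours 4 and 5 were far below every other sample and floxed tumour 2 was the highest of the 8. The difference of -1.02 had a wide error (SE 0.62, limma adjusted p = 0.942), and the other kept probe of Vwf placed tumours 4 and 5 at -1.46 and -1.05, below the rest as well. With slide as a fixed block its unadjusted p was 0.0347 (adjusted p = 0.727). With a sample left out the difference ran from -0.68 (without floxed tumour 4) to -1.41 (without floxed tumour 2), and it was -0.76 without floxed tumour 5. In the same 2 tumours the median of all vessel genes, relative to the mean of the pools, was 0.043 and 0.32. Mmrn2, an endothelial matrix glycoprotein, and Vash1, an inhibitor of vessel growth made by endothelium, had -0.021 and -0.051.

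The 5 endothelial transcription factors had differences of 0.26 for Sox7, 0.12 for Sox17, 0.21 for Sox18, 0.16 for Tal1 and -0.064 for Erg, with standard errors of 0.20 to 0.40. Sox7, Sox17 and Sox18 are related factors of vessel identity, Erg is an ETS factor that keeps endothelial genes on, and Tal1 is shared by endothelium and blood. The other kept probes of Sox7 and Sox17 gave -0.00493 and -0.13, opposite in sign to those used.

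The lymphatic and sinusoidal markers did not share a pattern. Lyve1, a hyaluronan receptor of lymphatic vessels and of some macrophages (chr7:106765983-106766042 of mm7, minus strand), had log2 ratios of 4.29, 2.24, 1.46, 0.20 and 0.34 in the floxed tumours and 4.18, 2.21 and 2.84 in the pools. Floxed tumour 1 and pool 1 were the highest, and floxed tumours 4 and 5 were near 0, with the probe well above background in 4 of the 5 floxed tumours. Its difference of -1.37 carried the largest error of the 53 genes (SE 0.89, limma adjusted p = 0.942) and was -0.50 by its other probe. With a sample left out it ran from -0.82 (without pool 1) to -2.01 (without floxed tumour 1, adjusted p = 0.795), and it was -0.99 without floxed tumour 4. Within slides it was -3.91, 2.09 and -0.99 for the slides of pools 1, 2 and 3, so it changed sign between slides.

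Prox1 is the transcription factor that sets lymphatic identity and is also made in some epithelia. It had its highest value in pool 1 (2.10) against 0.42 to 1.59 in the floxed tumours. Its difference was -0.44 (SE 0.34), or -0.019 by its other probe. Mmrn1, a matrix protein of lymphatic endothelium and platelets, was well above background in 3 floxed tumours and 0 pools. It was kept through the floxed tumours alone, so no test is read from it; its ratios were 0.32, 0.93, 0.30, 0.76 and 0.85 in the floxed tumours and 0.54, 0.15 and 0.00241 in the pools, and pool 1 lay above floxed tumours 1 and 3. Stab1, a scavenger receptor of sinusoidal endothelium and macrophages, had -0.044, and 0.15 by its other probe. Selp, the selectin that endothelium and platelets expose on activation, had -0.070 (SE 0.20); Sele, the cytokine-induced selectin, was dim on all 8 arrays.

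All 4 Notch and ephrin genes had a difference above 0, and 0 of 4 passed the test. Dll4, the Notch ligand of tip and arterial cells, had log2 ratios of 2.13, 2.28, 2.84, 2.57 and 2.92 in the floxed tumours and 1.28, 2.27 and 3.26 in the pools. The pools spanned the floxed tumours on both sides, and the difference of 0.27 (SE 0.40) was -0.22 without pool 1 and 0.77 without pool 3. Ephb4, the ephrin receptor of veins that mammary epithelium also expresses, had 0.40 (SE 0.28, limma adjusted p = 0.942). Notch4, an endothelial Notch receptor, and Efnb2, the arterial ligand of Ephb4, had 0.15 and 0.17.

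Of the 15 ligands compared, 0 passed the test. Vegfa, the main driver of vessel growth and a gene that low oxygen switches on (chr17:44147967-44148026 of mm7, minus strand), had log2 ratios of 0.23, 0.39, 0.70, 1.07 and 2.15 in the floxed tumours and 0.03, 0.84 and 0.90 in the pools. Floxed tumour 5 was the highest and pool 1 the lowest by each of its 3 probes. The differences were 0.32 (SE 0.42), 0.72 (SE 0.47) and 0.39 (SE 0.39) by probe, with a limma adjusted p of 0.960 for the one used. For that probe the difference was 0.012 without floxed tumour 5 and 0.041 without pool 1. Within slides the difference was 1.58, -0.60 and -0.35 for the slides of pools 1, 2 and 3.

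Of the other VEGF ligands, Vegfd, which acts on lymphatic vessels, had -2.52, -2.23, -2.41, -2.92 and -2.77 in the floxed tumours and -2.51, -2.75 and -4.27 in the pools. Pool 3 lay far below all other samples and pools 1 and 2 lay among the floxed tumours; the difference was 0.61 (SE 0.37, limma adjusted p = 0.942) and 0.062 without pool 3. Vegfc, the related lymphatic factor, ran from -3.54 to -0.85 over the floxed tumours, with floxed tumour 2 the highest of the 8 samples. Vegfb, a ligand of Flt1, varied least (SD 0.10 in floxed tumours, 0.04 in pools) and had a difference of -0.057, or 0.079 by its other probe. Pgf, placental growth factor, had -0.065 (SE 0.33).

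Angpt2, which endothelial cells release to loosen vessels, had log2 ratios of 1.45, 0.73, 1.25, 2.49 and 3.50 in the floxed tumours and 0.83, 1.99 and 2.25 in the pools. As for Vegfa, floxed tumour 5 was the highest and tumour 4 the next, and the difference was 0.19 (SE 0.61, limma adjusted p = 0.982). Angpt1, made by pericytes to steady vessels, was well above background in 2 floxed tumours and 1 pool and had -0.24. Angptl4, a lipase inhibitor induced by fasting and low oxygen, had -0.40 (SE 0.42), with floxed tumour 3 the lowest at -2.53. Angptl2, a secreted factor of stroma, had 0.21 (SE 0.15) by the probe used, 0.38 by another and -0.51 by the last.

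Hgf, the stromal ligand of Met, had log2 ratios of -1.01, -0.93, -1.69, -1.95 and -1.50 in the floxed tumours and -1.83, -1.64 and -2.12 in the pools; floxed tumours 1, 2 and 5 were above every pool, and the difference was 0.45 (SE 0.26, limma adjusted p = 0.942), or 0.24 and 0.15 by its other probes. Fgf1 had 0.21 (SE 0.19), or 0.043 by its other probe, and both probes of Fgf2, a matrix-bound growth factor of fibroblasts, were too dim to compare. Pdgfa, a ligand for stromal PDGF receptors, had -2.73, -0.78, -1.26, -1.17 and -1.05 against -1.39, -1.36 and -0.81. Floxed tumour 1 stood below all others, pools 1 and 2 lay below the remaining floxed tumours, and pool 3 lay among them; the difference of -0.21 (SE 0.41) was 0.13 without that tumour. Pdgfc, also a ligand of stromal receptors, had -0.40 (SE 0.23, limma adjusted p = 0.942). Pdgfb, the endothelial signal to pericytes, and Pdgfd had 0.024 and 0.015.

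**Figure D2:**
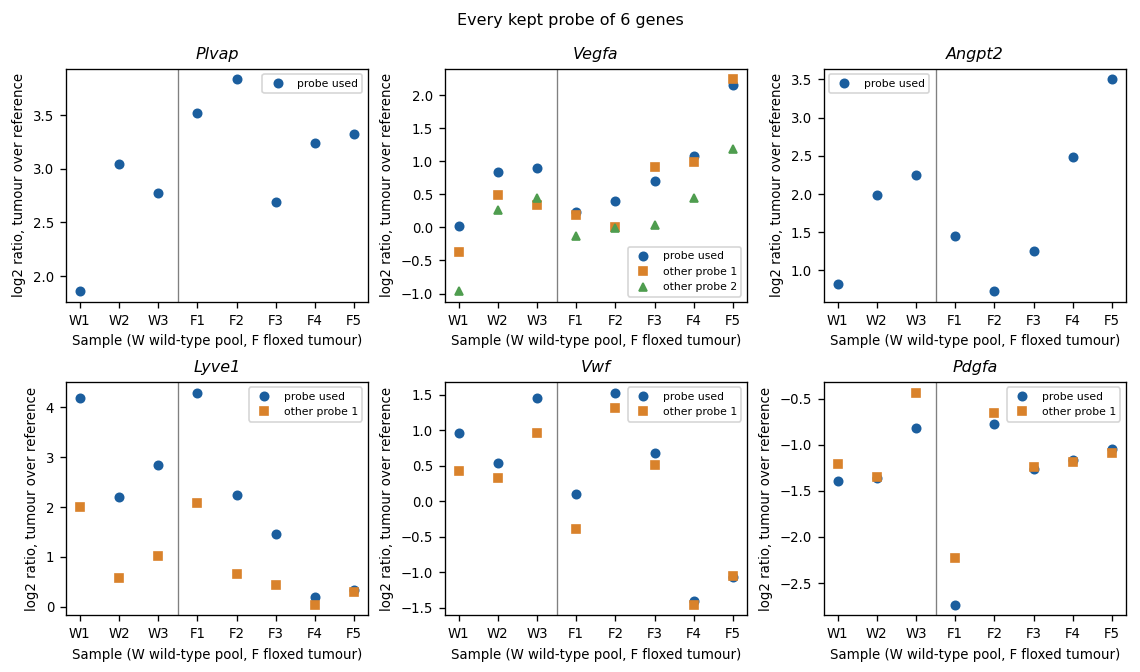
Log2 ratio of tumour over reference (y axis) in each sample (x axis, W1 to W3 wild-type pools, F1 to F5 floxed tumours) for every kept probe of Plvap, Vegfa, Angpt2, Lyve1, Vwf and Pdgfa; circles are the probe used and other symbols the other kept probes. Vegfa and Angpt2 were highest in F5, Lyve1 was near 0 in F4 and F5, Vwf was lowest in those 2 samples and Pdgfa was lowest in F1.

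As over all genes, the vessel genes varied among samples of a group by more than their typical difference between the groups. That difference had a median size of 0.165 for the vessel genes, beside 0.157 for all genes. The median SD of the 38 vessel genes was 0.39 over the floxed tumours and 0.35 over the pools, beside 0.28 and 0.25 for all genes. Relative to the mean of the pools, the median vessel gene stood at 0.19, 0.45, -0.29, 0.043 and 0.32 in the floxed tumours and at -0.094, -0.21 and 0.28 in the pools. Floxed tumour 3 was thus the lowest sample and floxed tumour 2 the highest, with pool 3 near floxed tumour 5. By gene, 16 of the 38 had their lowest value in floxed tumour 3, 8 in pool 1 and 6 in pool 2; 15 had their highest in floxed tumour 2 and 12 in pool 3. The ligand medians were -0.12, 0.24, -0.069, 0.015 and 0.22 in the floxed tumours and -0.18, -0.11 and 0.38 in the pools.

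**Figure D3:**
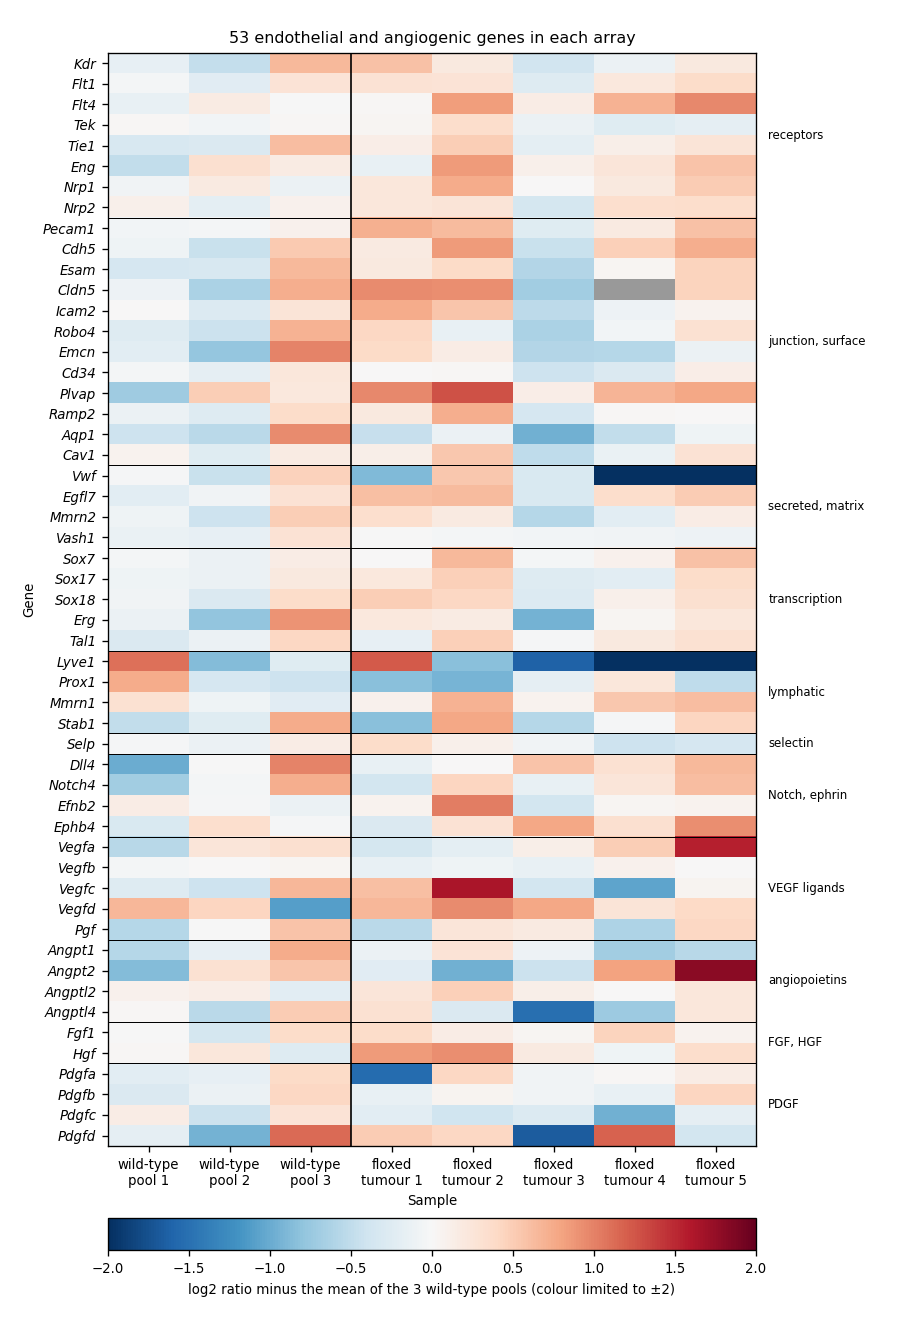
Log2 ratio of each of the 53 genes (y axis, by role) in each of the 8 samples (x axis), minus the mean of the 3 wild-type pools of that gene; red is above and blue below that mean, colours are limited to 2 either way and grey is the 1 missing value (Cldn5 in floxed tumour 4). Most junction and surface genes are blue in floxed tumour 3 and pool 2 and red in floxed tumour 2 and pool 3, while Vwf, Lyve1, Vegfa and Angpt2 follow orders of their own.

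Arrays of 1 slide were also set against each other. Floxed tumours 2 and 3 shared a slide, and 35 of 38 vessel genes (92.1%) were higher in tumour 2, by a median of 0.74, whereas 51.8% of all genes were. Tumours 2 and 3 are the highest and the lowest sample by these same genes, so a high count follows from that choice. The junction and surface genes were higher in tumour 2 in 12 of 12, by 0.45 to 1.63. Pool 3, on that slide too, was above floxed tumour 3 in 33 of 38 vessel genes (86.8%, beside 58.1% of all genes). On the slide of pool 1, floxed tumour 5 was above floxed tumour 4 in 34 of 37 vessel genes (91.9%, beside 50.1% of all genes) and above pool 1 in 32 of 38 (84.2%, beside 47.6%). Floxed tumour 1 was above pool 2, its slide partner, in 29 of 38 (76.3%, beside 55.0%). The shares were smaller for floxed tumour 2 above pool 3 (23 of 38, 60.5%, beside 44.1%) and floxed tumour 4 above pool 1 (24 of 37, 64.9%, beside 45.8%). These counts compare single arrays and have no replicate behind them, and genes within a sample are not independent.

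A list of other endothelial genes, none of them among the 55, had sample medians close to these. The 25 that were kept had medians of 0.13, 0.45, -0.25, 0.046 and 0.27 in the floxed tumours and -0.19, -0.21 and 0.29 in the pools, relative to the pools' mean. Floxed tumours 2 and 3 were again the highest and the lowest sample. Of these genes 20 had a difference above 0 and 5 below, with a median of 0.14, and 0 passed at an adjusted or unadjusted p of 0.05; the 2 of smallest p were Nos3, the endothelial nitric oxide synthase, with a log2 difference of 0.35, and the transcription factor Ets1, with 0.27. In 26 of the 38 vessel genes (68.4%) the ratio of tumour over reference was above 0 in every one of the 8 samples. That held for 32% of all genes and for 5 of the 15 ligands. The endothelial markers Kdr, Cdh5, Emcn, Robo4, Esam and Tie1 were among the 26. Others of the 26 were close to 0 in a sample, such as Vash1 in pool 2 (0.00081), Mmrn1 in pool 3 (0.0024) and Tek in floxed tumour 4 (0.0054). In 9 of the 38 vessel genes the ratio was below 0 in every sample, Cd34, Cav1, Flt1 and Nrp1 among these. The same held for 9 of the 15 ligands and 5981 of all 21540 genes. A dye bias shared by all arrays would enter these ratios and was not tested.

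Markers of other cells moved between samples too. Pericyte and smooth muscle markers (13 kept) had medians of 0.019, 0.34, -0.21, 0.15 and 0.47 in the floxed tumours and -0.079, -0.12 and 0.29 in the pools, and macrophage markers (14 kept) 0.32, 0.46, -0.62, 0.048 and 0.11, and -0.11, -0.33 and 0.37. In both lists floxed tumour 3 was the lowest sample, as for the vessel genes. Platelet and megakaryocyte markers (8 kept) had another order, with floxed tumour 5 the lowest. Their medians were 0.075, 0.20, 0.17, -0.15 and -0.21 in the floxed tumours and -0.17, 0.11 and 0.0028 in the pools. Fibroblast and matrix markers (13 kept) ranged from -0.51 to 1.81 over the floxed tumours, highest in tumour 2, and from -0.25 to 0.30 over the pools. Adipocyte markers (10 kept) ranged from -0.82 to 1.56, highest in floxed tumour 1, and from -0.46 to 0.39. Skeletal muscle markers (13 kept) reached 2.21 in floxed tumour 5 and lay between -0.23 and 0.51 in the other floxed tumours. Luminal epithelial markers (10 kept) stayed between -0.13 and 0.13 in the floxed tumours and reached 0.36 in pool 3. The part of these cell types in the values of the vessel genes was not tested.

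Between the groups, 0 genes of these marker lists passed the adjusted threshold. The 2 genes of smallest p in each list had log2 differences of 0.54 for Tagln and 0.38 for Myh11 among pericyte and smooth muscle markers, -0.96 for Cd14 and 0.35 for Csf1r among macrophage markers, and 0.78 for Col5a2 and 0.63 for Col5a1 among fibroblast markers. They were -0.75 for Itgb3 and 0.31 for Pf4 among platelet markers, and -0.34 for Slc2a4 and -0.43 for Pck1 among adipocyte markers. Muscle markers had 0.51 for Pgam2 and 0.54 for Atp2a1, and luminal markers -1.04 for Krt19 and -0.32 for Cdh1. Each of these genes had a limma adjusted p of 0.942 or 0.943. The unadjusted limma p was under 0.05 for Tagln (0.0485), Cd14 (0.0453), Itgb3 (0.0200) and Pgam2 (0.0140), beside 4.97% of all genes. No gene of the fibroblast, adipocyte or luminal lists reached it. Pgam2 was higher in every floxed tumour than in every pool, as for 1.01% of all genes.

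**Figure D4:**
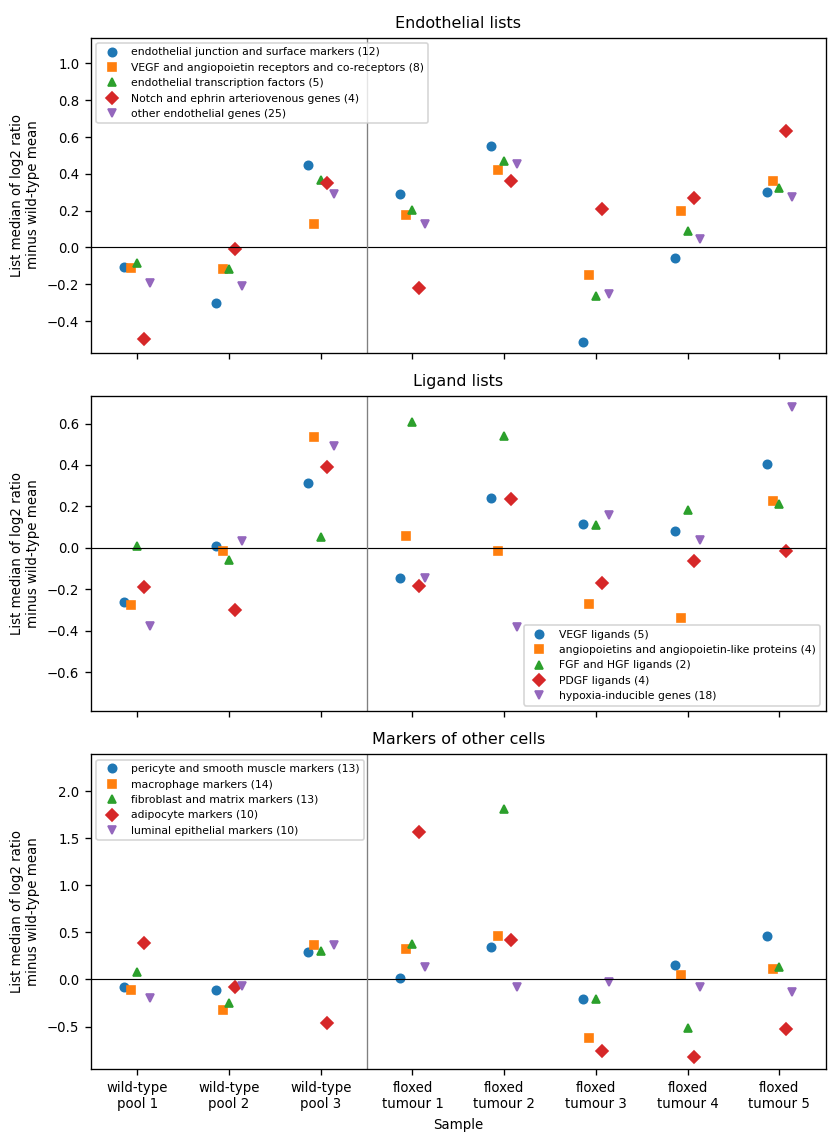
Median over a list of the log2 ratio minus the mean of the wild-type pools (y axis) in each sample (x axis), for 4 lists of vessel genes and the other endothelial genes (top), 4 ligand lists and hypoxia-inducible genes (middle) and markers of 5 other cell types (bottom); the number of genes is given in each legend. Floxed tumour 3 is lowest for junction and surface markers at -0.51, hypoxia-inducible genes are highest in floxed tumour 5 at 0.68, and the fibroblast list reaches 1.81 in floxed tumour 2.

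The pathway around these genes was described with further lists. The 18 hypoxia-inducible genes, many of them targets of the oxygen-sensing factor HIF, had medians of -0.15, -0.38, 0.16, 0.038 and 0.68 in the floxed tumours and -0.38, 0.034 and 0.49 in the pools. Floxed tumour 5, highest in Vegfa and Angpt2, was highest here as well, and pool 1, lowest in Vegfa, and floxed tumour 2 were the lowest. Between the groups 12 were above 0 and 6 below with a median of 0.041; Ero1a, an oxidase of the endoplasmic reticulum, had 0.63 (unadjusted p = 0.0414) and Higd1a 0.79, with 0 past the adjusted threshold. Among 10 Notch pathway genes, 6 were above 0 and 0 passed. Hey2, a Notch target of arterial endothelium, was below every pool in every floxed tumour, as for 2.17% of all genes. Its log2 ratios were -0.39, -0.17, -1.98, -0.83 and -0.20 in the floxed tumours and 0.0076, 0.083 and 1.91 in the pools. Its difference was -1.38 (SE 0.54, limma unadjusted p = 0.0300, adjusted p = 0.942), with the probe well above background in 4 of the 5 floxed tumours. The ligand Dll1 had -0.76.

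Of 9 receptors for angiogenic ligands that other cells also carry, 4 were above 0 and 5 below, with 0 passed. Acvrl1, an endothelial BMP receptor, had -0.59 (limma unadjusted p = 0.0414) and Fgfr3 had -0.40. Of 13 angiogenesis inhibitors and feedback genes, 9 were above 0 and 4 below, with 0 passed; Spry2 and Spry4, which dampen receptor tyrosine kinase signalling, had 0.42 and 0.44.

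Promoters were read from RefSeq's table (GRCm38.p6), which held 38 of the 55 genes with 49 start sites. The 250 bases before each start were searched for TTCNNNGAA, the letters of a STAT dimer site, on both strands, and for AGGAAG on both strands, letters that many ETS factors bind and that are common in endothelial promoters. TTCNNNGAA was in 1 of the 49 windows (2.04%), that of Sele, beside 7.02% of all 32851 windows; AGGAAG was in 20 (40.8%), beside 29.5%; ACGTG, the core that HIF binds, was in 2 (4.08%), beside 16.6%. The windows of Emcn, Robo4 and Tie1 are shown as examples with AGGAAG, and that of Sele as the 1 window with TTCNNNGAA. Emcn, Robo4 and Tie1 were higher in floxed tumour 2 than in floxed tumour 3, as were 35 of the 38 vessel genes. The windows of Kdr and Cldn5, also higher in tumour 2, hold no AGGAAG, and a link of the letters to that contrast was not tested. Each window shown is given 5′ to 3′ on the gene's strand and ends at the base before the start. AGGAAG or its reverse complement CTTCCT, and in Sele TTCCCAGAA, are in capitals. They lie at chr3:137340828-137341077 (plus strand), chr9:37401722-37401971 (plus), chr4:118489850-118490099 (minus) and chr1:164047984-164048233 (plus). A match of letters is a description and not evidence of binding.
Emcn: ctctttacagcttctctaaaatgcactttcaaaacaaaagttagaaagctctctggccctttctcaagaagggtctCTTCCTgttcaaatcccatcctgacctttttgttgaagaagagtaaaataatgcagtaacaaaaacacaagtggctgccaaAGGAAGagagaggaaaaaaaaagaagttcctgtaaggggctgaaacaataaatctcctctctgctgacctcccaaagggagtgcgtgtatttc
Robo4: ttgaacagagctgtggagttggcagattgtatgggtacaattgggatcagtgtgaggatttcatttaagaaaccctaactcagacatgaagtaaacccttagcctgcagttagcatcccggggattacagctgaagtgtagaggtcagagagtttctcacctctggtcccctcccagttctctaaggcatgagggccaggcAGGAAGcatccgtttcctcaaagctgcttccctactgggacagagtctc
Tie1: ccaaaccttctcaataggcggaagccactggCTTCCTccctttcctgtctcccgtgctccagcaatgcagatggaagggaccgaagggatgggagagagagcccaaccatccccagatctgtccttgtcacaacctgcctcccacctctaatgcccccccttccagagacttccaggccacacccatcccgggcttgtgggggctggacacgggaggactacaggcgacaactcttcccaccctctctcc
Sele: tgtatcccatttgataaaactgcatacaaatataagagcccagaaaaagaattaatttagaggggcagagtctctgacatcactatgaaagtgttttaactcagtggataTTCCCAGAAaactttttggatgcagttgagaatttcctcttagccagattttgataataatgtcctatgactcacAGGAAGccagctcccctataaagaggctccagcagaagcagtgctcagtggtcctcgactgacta

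The intervals give the precision of 5 against 3 arrays. The median half-width of the 95% interval was 0.63 on the log2 scale, a 1.55-fold change. In 34 of the 53 genes the interval excluded a 2-fold difference in either direction, and in 51 it excluded a 4-fold one. Lyve1 and Vwf were the exceptions to the latter. Mmrn1, from which no test is read, is counted in both the 34 and the 51. Its difference was 0.40 in the main fit and 1.66 with processed signals.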

How the data were processed

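The deposited mean and background intensities, per the file headers, come unnormalised from Agilent Feature Extraction 9.5.3.1. The authors' deposited value table holds log2 ratios whose normalization is not stated; it tracked each array's own tumour-to-reference ratio (r 0.991 to 0.996, slope 0.984 to 1.26) and served as an alternative. RMA is named beside Feature Extraction in the submitters' processing notes. Probe coordinates are of build mm7, per the file headers; exon or UTR position was not examined.

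With limma 3.58.1 in R 4.3.3, intensities were corrected by normexp (offset 50) and log2 ratios normalised by loess within arrays, with control spots at weight 0 and outlier spots left out. The 10 spots of each of 245 probes were averaged. Probes well above background in the tumour channel on at least 3 of 8 arrays, with at least 2 unflagged values a group, were kept (31281), and the brightest stood for a gene. The accession named 22951 probes, a current symbol 6659, and 11564 kept the file's name. Groups were compared with lmFit and eBayes, p-values adjusted (Benjamini-Hochberg) over 21540 genes. On data simulated with the same means and design, 48 of 100 genes changed 2-fold and 93 of 100 changed 4-fold passed, with 5 unchanged genes called. The simulated noise was normal, independent between genes and of the same SD in both groups. The changed genes were drawn from all genes, so these shares do not carry over to the vessel genes, whose median SD was larger. Single genes were also compared by exact permutation over 56 splits. Floxed tumours were numbered in accession order.

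Members and lists were chosen with earlier results of these data known. Named were Pecam1, Cdh5, Kdr, Vegfa, members at an unadjusted p under 0.05 or without overlap, the 2 of smallest p in each list, and members whose probes differ in sign; the others, and the motifs AGGAAG and ACGTG, were chosen after their values were seen. Alternatives changed background correction, normalization, channel, filter, probe, slide, variance model, values and samples.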

Additional observations from a re-analysis of the deposited data

Results flagged for a closer look

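In 4 of the 66 sets of 5 floxed values tested (single genes and list medians), 1 tumour stood apart from the other 4 beyond Dixon's 95% limit; chance alone gives about 1 in 20, or 3.3 of 66. Floxed tumour 3 was the low sample in 3 of them: its log2 ratio was -0.95 for Flt1 (the other floxed tumours -0.48 to -0.31), -3.10 for Nrp2 (-2.53 to -2.41) and 3.04 for Erg (4.03 to 4.21). Floxed tumour 1 was the low sample for Pdgfa, at -2.73 against -1.26 to -0.78 in the others. The 3 wild-type pools are too few for such a test.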

How the results depend on the processing

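No member passed the adjusted threshold under any alternative, with a sample left out or not; the lowest adjusted p of a named member was 0.495 (Plvap without wild-type pool 2). Members at an unadjusted p under 0.05 numbered 1, and 4 with the scanner's processed signals, 2 with median centring, 2 with the tumour channel alone, 2 with slide as a fixed block, 0 with a trended robust variance and 0 to 4 with a sample left out. Mmrn1, from which no test is read, is counted with processed signals, with median centring, without floxed tumour 1 and without pool 1. The share of all genes at that p is given for the main fit only (4.97%). Genes past the adjusted threshold over the whole array numbered 1, and 5 with the tumour channel alone, 0 with the processed signals, with a filter on all 8 arrays, with no filter, with slide as a fixed block, with a trended robust variance and with the authors' deposited table, and 0 to 2 with a sample left out. Leaving out a sample gave medians of 0.0099 to 0.31 for all members, 0.036 to 0.33 for vessel genes and -0.080 to 0.24 for ligands (0.24 without floxed tumour 3 and 0.22 without pool 3). Within the slide of pool 3 they were -0.26, -0.25 and -0.35. Of 27 named members, 19 kept their sign under each alternative fitted to all slides together that gave them a value. Mmrn1, kept through the floxed tumours alone, is counted among the 19. Flt4, Lyve1 and Mmrn1 have no value with the filter on all 8 arrays. Values within single slides changed sign for others too, Vegfa and Lyve1 among them. Sign changed for Stab1 (0.00242 with processed signals, 0.051 with the mean of probes, 0.099 in the authors' table), Dll4 (-0.027 with the tumour channel alone), Tek (0.012 with the mean of probes, 0.061 in the authors' table), and, with the mean of probes, Sox17 (-0.00689) and Vegfb (0.011). With a sample left out it changed for Kdr (-0.14 to 0.42), Tek (-0.12 to 0.026), Stab1 (-0.29 to 0.32), Selp (-0.18 to 0.017), Dll4 (-0.22 to 0.77) and Pdgfa (-0.36 to 0.13). The causes were not tested. Slide as a random block had a consensus correlation of -0.059. No paired analysis was possible because the labels pair no single floxed tumour with a pool. Slide was the block used in its place.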
